A study of Mus musculus with 30 samples.

Results

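IGF1, its receptors and the IGF-binding proteins were followed through fracture healing in 9 genes of the deposited count table, which lists 43629 genes. The genes are Igf1, Igf1r, Igf2r and Igfbp2 to Igfbp7, chosen by name as members of this family and read from all 30 callus libraries. The choice was made with earlier results of these data known. Igfbp1, a further binding protein, was not among the 9 and was at 0 CPM in every library. All 9 had reads in every library and passed the filter on low counts in every comparison. The libraries came from male C57BL/6J mice, aged 20 weeks at an open fracture of the right tibia that was stabilized with an intramedullary nail. Each library held the RNA of 1 callus. Lean mice were fed a low-fat diet and gave 3 calli each on d3, d5, d7 and d10 after fracture, 12 in all. Mice with diet-induced obesity (DIO) were fed a high-fat diet and gave 3 calli each at the same 4 times and again on d14 and d21, 18 in all. Obesity was thus set by diet and not by a mutation, and all mice, Lean mice included, carried a fracture, so that no unfractured bone enters the values.

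Insulin-like growth factor 1 is a secreted growth factor that is made by the liver under growth hormone and also locally by cells of the skeleton. It signals through IGF1R, a receptor tyrosine kinase, while IGF2R binds chiefly IGF2 and mannose-6-phosphate tagged enzymes and carries them to lysosomes. The IGF-binding proteins hold IGFs in tissue and serum, and proteases such as the pappalysins release the growth factor by cutting them. IGFBP7 binds IGFs weakly compared with the other members of its family.

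Between 13247122 and 26365620 reads per library were counted on genes, with a median of 16854427. Levels are given in CPM, read counts scaled to a common library size with the TMM factors of edgeR. The lowest count of any member in any library was 22 reads, for Igfbp2, and the highest was 21297 reads, for Igfbp4. The callus was a mixture of tissues in every group: the markers Col2a1 of cartilage, Bglap of osteoblasts, Ctsk of osteoclasts, Adgre1 of macrophages, S100a8 of neutrophils, Acta1 of skeletal muscle, Adipoq of adipocytes, Pecam1 of endothelium and Pdgfra of stromal cells were above 0 in all 30 libraries. In such bulk RNA, fewer cells of a type and less RNA per cell cannot be told apart. Some libraries stood apart from their group in these lists. The first Lean mouse of d10 had a sum of 69377 CPM over 10 chondrocyte genes and of 1232 CPM over 10 skeletal muscle genes, against 12998 to 14995 CPM and 11763 to 16978 CPM in the other mice of that day. The second DIO mouse of d7 had 18062 CPM over 10 fibroblast and stromal genes, against 10040 and 11417 CPM. On d21 the 3 DIO mice had 442, 14171 and 2718 CPM over the skeletal muscle genes.

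Compared per length of their exons, 5 of the 6 binding proteins, all but Igfbp2, were the most abundant transcripts of the family and Igf1r was the least. Over the 30 libraries, the mean level was 320 CPM per kb for Igfbp7, 172 for Igfbp4, 63.2 for Igfbp5, 45.3 for Igfbp6 and 30.2 for Igfbp3. Igf2r had a mean of 17.7 CPM per kb, Igf1 of 12.3, Igfbp2 of 2.75 and Igf1r of 0.632. The transcript of Igf2r was thus far above that of Igf1r in every group. Summed over the 6 binding proteins, the level per length was 507 ± 72.7 CPM per kb on d3 in Lean mice (SD, n = 3) and 759 ± 50.2 on d5, 711 ± 29.2 on d7 and 690 ± 41.6 on d10. In DIO mice the sum was 539 ± 50.7 CPM per kb on d3, 819 ± 12.7 on d5, 863 ± 69.3 on d7, 571 ± 60.8 on d10, 503 ± 32.1 on d14 and 377 ± 122 on d21. The 3 DIO mice of d5 and those of d7 were all above the other DIO mice in this sum, and d21 held both the lowest mouse, at 282, and one of 514. Much of the sum was Igfbp7, whose mean in DIO mice was 293 CPM per kb on d3 and 137 on d21. Igfbp3 and Igfbp6 also had lower means on d21 than on d3, and Igfbp5 was nearly level. Igfbp2 and Igfbp4 had higher means on d21, with 114 CPM per kb on d3 and 156 on d21 for Igfbp4. The lower sum of d21 was thus not a fall of every binding protein.

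**Figure D1:**
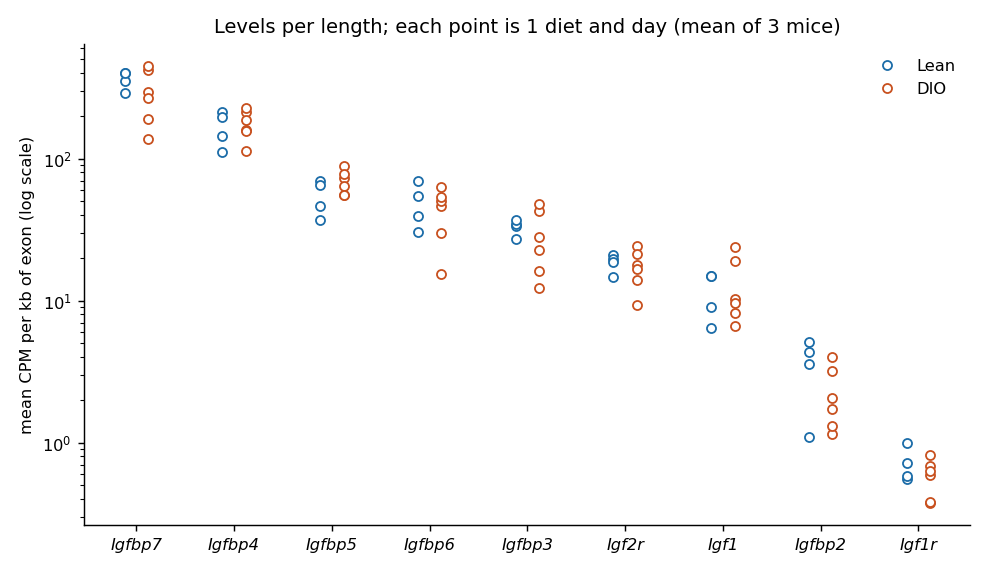
Mean level of each gene in CPM per kb of exon on a log axis, with 1 point for each diet and day (mean of 3 mice; 4 Lean and 6 DIO groups). Igfbp7 and Igfbp4 lie above 100 CPM per kb in every group, and Igf1r lies at or below 0.998.

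Members of the family changed between days of healing in both diets, over a shorter series with fewer libraries in Lean mice, which ended on d10. In Lean mice, 4 of the 9 members differed between any of the days at an edgeR adjusted p under 0.05 (Igf1, Igfbp2, Igfbp4 and Igfbp6), where 19% of all tested genes did. In DIO mice, 7 of 9 did, all but Igfbp5 and Igfbp6, where 59.1% of all tested genes did. Of the pairs of Lean days, d5 against d3 gave 1 member (0.449% of all genes), d7 against d3 gave 1 (1.67%) and d10 against d3 gave 3 (29.3%). Between d7 and d5 of Lean mice edgeR gave 0 members (0% of all genes), with 0 at an unadjusted p under 0.05 and 0 by DESeq2. Between d10 and d7 of Lean mice edgeR also gave 0 (2.73%), with 2 at an unadjusted p under 0.05 and 0 by DESeq2.

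In DIO mice, d5 against d3 gave 3 members, all higher on d5 (1.68% of all genes), and d7 against d3 gave 2, both higher (7.3%). Then d10 against d3 gave 1 member higher and 1 lower (21.8%), and d10 against d7 gave 4, all lower on d10 (13%). Between d21 and d14, 1 member was higher and 1 lower (19.6%), and between d21 and d3 4 were lower on d21 (45.3%). For 2 pairs of DIO days, d7 against d5 (0.0177% of all genes) and d14 against d10 (0.759%), edgeR gave 0 members and DESeq2 gave 0, with 1 and 2 members at an unadjusted p under 0.05. The median log2 fold change of the 9 members was 0.56 from d3 to d5 in Lean mice and 0.62 in DIO mice, beside 0.01 and 0.00 over all genes. It was -0.51 from d7 to d10 in DIO mice, beside -0.02 over all genes, and -0.37 from d3 to d21, beside 0.03.

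**Figure D2:**
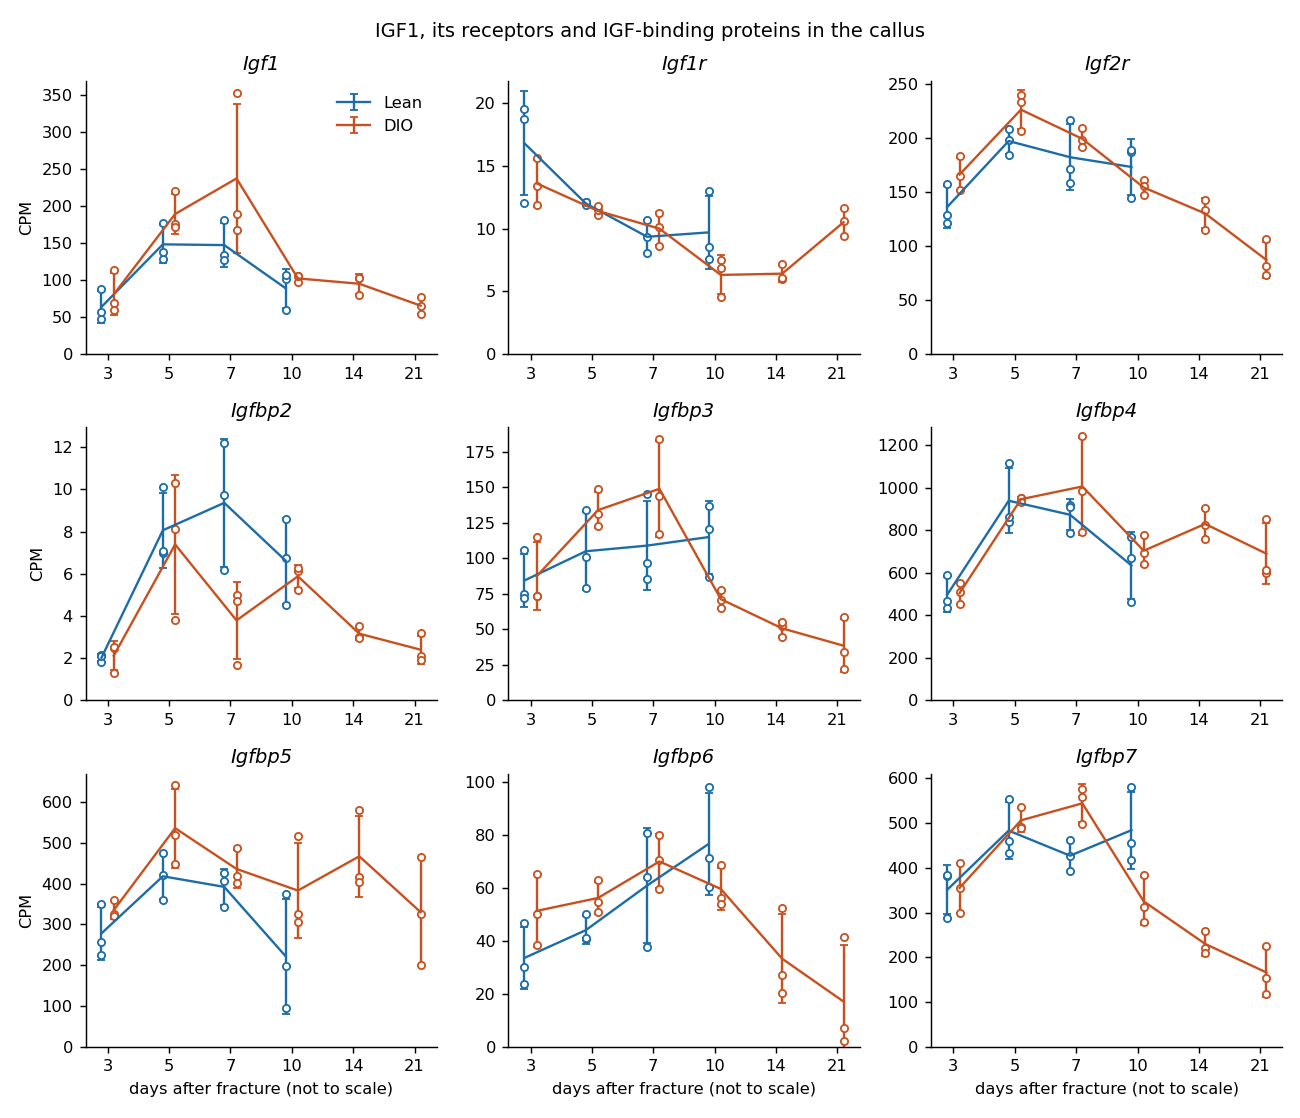
Level of each gene in CPM by day after fracture (axis not to scale) in Lean and DIO mice, with 1 open circle per mouse, lines through the means of 3 mice and bars of 1 SD. In DIO mice Igf1 has its highest mean on d7, at 237 CPM, and Igfbp3, Igfbp7 and Igf2r have their lowest on d21.

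Igf1, the growth factor itself, was higher on d5 and d7 than on d3 and d10 in both diets. Single pairs of days were called by edgeR in DIO mice only. In Lean mice Igf1 stood at 46.6, 56 and 88.0 CPM on d3, at 177, 128 and 137 on d5, at 133, 127 and 181 on d7 and at 58.7, 101 and 107 on d10. In DIO mice it stood at 113, 69.2 and 59.5 CPM on d3, at 175, 220 and 172 on d5, at 189, 353 and 168 on d7 and at 105, 96.9 and 105 on d10. It then stood at 103, 102 and 79.5 on d14 and at 54.5, 64.8 and 76.3 on d21. In both diets every mouse of d5 and d7 was above every mouse of d3 and of d10. In DIO mice the rise from d3 to d5 was 2.35-fold (95% interval 1.61 to 3.43, edgeR adjusted p = 0.0187), and from d3 to d7 it was 2.94-fold (2.01 to 4.31, edgeR adjusted p = 0.00115). From d7 to d10 it fell by 1.21 on the log2 scale (SE 0.26, edgeR adjusted p = 0.00451). The mean of d7 owed much to the second mouse, at 353 CPM, without which the log2 difference from d3 was 1.15 and that from d7 to d10 was -0.80, both still past the threshold. The call from d3 to d5 was lost without the second or the third DIO mouse of d3 or the second of d5, with adjusted p of up to 0.106.

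In Lean mice Igf1 differed between any of the days (edgeR adjusted p = 0.0205), and this call was lost without the first (0.0617) or the second (0.0692) mouse of d3. Its single pairs did not pass: the ratio of d5 to d3 was 2.37 (1.56 to 3.62, edgeR adjusted p = 0.0723) and that of d7 to d3 was 2.34 (1.54 to 3.57, 0.0506). With DESeq2, which gave more calls over all genes, both pairs passed. The Lean ratio of d10 to d7 was 0.610 (0.402 to 0.925, edgeR adjusted p = 0.134), without overlap of the mice, and DESeq2 gave 0.0875. For Igf1 the change of the diet difference over the days had an edgeR adjusted p of 0.846. Ordered by mean over the 10 groups, Igf1 ran from DIO d7 (237 CPM) and DIO d5 (189) over Lean d5 (148) and Lean d7 (147) to DIO d10 (102), DIO d14 (94.8), Lean d10 (88.7), DIO d3 (80.5), DIO d21 (65.2) and Lean d3 (63.5). Of these 9 steps, the mice of neighbouring groups overlapped in 8, and the exception was the step from Lean d7 to DIO d10. The gene lies on chromosome 10 from 87858265 to 87937042, on the plus strand of GRCm38, and shares 0 exon bases with its antisense neighbour Igf1os.

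Igfbp2 and Igfbp4 were, beside Igf1, the members called higher on d5 than on d3 in DIO mice. Igf2r, Igfbp3, Igfbp5 and Igfbp7 had ratios of 1.36, 1.54, 1.60 and 1.43 between the same days, without overlap of the mice, but did not pass (edgeR adjusted p of 0.141, 0.291, 0.234 and 0.242), and the difference between them and the called members was not tested. IGFBP2 and IGFBP4 are secreted proteins that bind both IGFs. IGFBP4, a substrate of the pappalysin that Pappa encodes, is known chiefly as an inhibitor of IGF action. Igfbp4 was at 434, 467 and 588 CPM on d3, at 839, 1110 and 863 on d5, at 920, 909 and 787 on d7 and at 462, 769 and 670 on d10 in Lean mice. The DIO mice were at 511, 550 and 451 CPM on d3, at 950, 952 and 933 on d5, at 791, 1241 and 983 on d7 and at 778, 693 and 639 on d10. On d14 it was at 757, 825 and 904 CPM and on d21 at 599, 854 and 614. The mice of d3 lay below those of d5 and d7 in both diets without overlap. In DIO mice it rose 1.88-fold from d3 to d5 (1.43 to 2.46, edgeR adjusted p = 0.0164) and 2.00-fold from d3 to d7 (1.52 to 2.62, edgeR adjusted p = 0.00279). The first of these calls was lost in 5 of 18 fits with 1 library left out, those without any of the 3 mice of d3 or the first or second of d5, with adjusted p of up to 0.0793. In Lean mice it differed between any of the days (edgeR adjusted p = 0.0248), which was lost without the first (0.0819) or second (0.0788) mouse of d3 or the second of d5 (0.0565). The Lean ratio of d5 to d3 was 1.92 (1.40 to 2.64, edgeR adjusted p = 0.0707). From d7 to d10 the ratio in DIO mice was 0.700 (0.534 to 0.918, edgeR adjusted p = 0.0774). Unlike Igf1, its level on d14 and d21 in DIO mice was above that of d3 in every mouse, with a ratio of d21 to d3 of 1.37 (1.04 to 1.79, edgeR adjusted p = 0.0562).

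Igfbp2, the least abundant of the binding proteins, had the highest fold changes of the 9 members from d3 to d5, d7 and d10 in Lean mice. It was at 2.13, 1.83 and 2.1 CPM on d3 in Lean mice, then at 10.1, 6.99 and 7.06 on d5, at 9.72, 12.2 and 6.17 on d7 and at 6.76, 8.58 and 4.50 on d10. Every Lean mouse after d3 was above every mouse of d3. The rise was 4.08-fold on d5 (2.50 to 6.66, edgeR adjusted p = 0.0262), 4.70-fold on d7 (2.87 to 7.68, 0.00726) and 3.36-fold on d10 (2.06 to 5.48, 0.00279). The calls on d7 and d10 were kept whichever library was left out, whereas that on d5 was lost in 5 of 12 such fits, without the first or second mouse of d3 or d5 or the first of d7, with adjusted p of up to 0.154. In DIO mice Igfbp2 was at 1.32, 2.50 and 2.54 CPM on d3, at 3.79, 8.12 and 10.3 on d5, at 4.97, 1.69 and 4.70 on d7 and at 6.14, 6.27 and 5.25 on d10. It was at 3.52, 3.01 and 2.96 on d14 and at 3.17, 2.11 and 1.92 on d21. The DIO mice of d7 overlapped those of d3, and those of d5 and d10 did not. The rise from d3 was 3.45-fold on d5 (1.92 to 6.22, edgeR adjusted p = 0.0281) and 2.76-fold on d10 (1.53 to 4.98, 0.0158). The first was lost in 5 of 18 fits, without any of the 3 mice of d3 or the second or the third of d5, with adjusted p of up to 0.158. The other was lost without the first DIO mouse of d3, the lowest of its group, at 0.0682.

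The promoters of Igf1, Igfbp2 and Igfbp4, the 3 members called from d3 to d5 in DIO mice, are shown as examples of the family: the 250 bases before and 50 after the start of a RefSeq transcript, on GRCm38.p6. Capitals mark 3 promoter motifs that were searched on both strands, the TATA box TATAAA, the GC box GGGCGG and the CCAAT box, searched as CCAAT, of which none contains another. The Igf1 window is chr10:87860861-87861160 on the plus strand. It begins downstream of the gene's first base in the GENCODE annotation, so that it is the promoter of 1 of its transcripts. The capitals are CCAAT read on the other strand, 142 bases before the start.
Igf1: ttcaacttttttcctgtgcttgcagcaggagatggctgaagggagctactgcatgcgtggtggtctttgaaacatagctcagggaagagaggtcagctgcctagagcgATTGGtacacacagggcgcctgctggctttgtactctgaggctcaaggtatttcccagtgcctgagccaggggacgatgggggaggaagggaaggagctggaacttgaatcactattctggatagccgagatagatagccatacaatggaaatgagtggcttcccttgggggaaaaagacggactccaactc
The Igfbp2 window is chr1:72824230-72824529 on the plus strand, with GGGCGG at 113, 98 and 37 bases before the start. A second RefSeq window of this gene held none of the 3 motifs.
Igfbp2: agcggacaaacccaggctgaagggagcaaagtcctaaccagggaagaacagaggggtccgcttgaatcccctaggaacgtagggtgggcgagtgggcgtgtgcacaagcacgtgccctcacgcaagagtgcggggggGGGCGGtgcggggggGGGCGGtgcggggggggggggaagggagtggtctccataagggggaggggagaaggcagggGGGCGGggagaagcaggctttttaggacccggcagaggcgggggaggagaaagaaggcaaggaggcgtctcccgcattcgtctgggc
The Igfbp4 window is chr11:99040994-99041293 on the plus strand, with TATAAA 28 bases before the start.
Igfbp4: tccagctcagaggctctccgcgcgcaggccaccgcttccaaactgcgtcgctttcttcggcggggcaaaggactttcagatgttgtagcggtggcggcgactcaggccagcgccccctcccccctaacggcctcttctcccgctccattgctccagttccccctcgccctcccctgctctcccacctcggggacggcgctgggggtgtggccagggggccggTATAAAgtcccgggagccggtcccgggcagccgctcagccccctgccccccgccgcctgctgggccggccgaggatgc
These 3 windows shared none of the 3 motifs. TATAAA was found in 13.6%, GGGCGG in 35.7% and CCAAT in 37.4% of the 32851 RefSeq windows of the same length. They also differed in CG pairs, of which the Igf1 window held 6, that of Igfbp2 18 and that of Igfbp4 27, beside a median of 7.00 over all windows. Of the 10 windows of the 9 members, 4 held GGGCGG (Igf1r, Igf2r, Igfbp2 and Igfbp7), 2 held TATAAA (Igfbp4 and Igfbp6) and 2 held CCAAT (Igf1 and Igfbp6).

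The 2 receptors moved in opposite directions from d14 to d21 in DIO mice. Igf1r, the signalling receptor, was at 18.7, 19.5 and 12 CPM on d3 in Lean mice, at 12.1, 11.9 and 12.1 on d5, at 8.02, 10.7 and 9.32 on d7 and at 13, 7.58 and 8.52 on d10. It fell by 0.75 on the log2 scale from d3 to d10 (SE 0.24, edgeR adjusted p = 0.0337), although the third mouse of d3 and the first of d10 overlapped. This call was lost without the first or second mouse of d3 or the second or the third of d10, with adjusted p of up to 0.120. In DIO mice Igf1r was at 11.9, 15.6 and 13.4 CPM on d3, at 11.1, 11.5 and 11.8 on d5, at 10.1, 8.6 and 11.2 on d7 and at 7.52, 6.85 and 4.55 on d10. It was at 5.94, 7.19 and 6.07 on d14 and at 9.38, 11.6 and 10.6 on d21. The mice of d10 and d14 were the lowest and those of d21 were above both without overlap. From d3 to d10 it fell by 1.11 on the log2 scale (SE 0.20, edgeR adjusted p = 0.00107), a 2.16-fold lower level, and this call was kept whichever library was left out. From d7 to d10 it fell by 0.66 (SE 0.20, edgeR adjusted p = 0.0389), a call that was lost in 9 of 18 fits with 1 library left out, with adjusted p of up to 0.165 without the third mouse of d10. From d14 to d21 it rose 1.64-fold (1.22 to 2.2, edgeR adjusted p = 0.0207), which was lost without the first or the third mouse of d14, at up to 0.0775. Igf1r lies on chromosome 7 from 67952827 to 68233668, on the plus strand.

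Igf2r, the clearance receptor of IGF2, gave no call in the tested pairs of days up to d14 in either diet. It was lowest at the end of the DIO series. Of the days before d14, only d10 was compared with it, and d5 was not compared with d10. In Lean mice it was at 157, 121 and 129 CPM on d3, at 198, 184 and 208 on d5, at 158, 171 and 216 on d7 and at 187, 144 and 189 on d10. The DIO mice were at 152, 183 and 165 CPM on d3, at 206, 240 and 233 on d5, at 198, 191 and 209 on d7 and at 161, 147 and 155 on d10. It was at 133, 115 and 142 on d14 and at 73.4, 106 and 81.3 on d21. The DIO mice of d10 were below those of d5 and d7, and those of d14 below those of d10, without overlap. The log2 change was -0.37 from d7 to d10 (SE 0.14, edgeR adjusted p = 0.101) and -0.25 from d10 to d14 (SE 0.14, 0.370). The mice of d21 were below all other DIO mice. From d14 to d21 Igf2r fell by 0.58 on the log2 scale (SE 0.14, edgeR adjusted p = 0.0107), and from d3 to d21 by 0.94 (SE 0.14, edgeR adjusted p = 6.07e-05). The first of these was lost without the third mouse of d14 or the first of d21, at up to 0.0641, and the second was kept in all 18 fits. The ratio of d5 to d3 was 1.48 in Lean mice (1.16 to 1.89, edgeR adjusted p = 0.141) and 1.36 in DIO mice (1.11 to 1.67, 0.141), so that an early rise did not pass the test. Igf2r lies on chromosome 17 from 12682406 to 12769664, on the minus strand, and the antisense transcript Airn shares 0 of its exon bases.

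**Figure D3:**
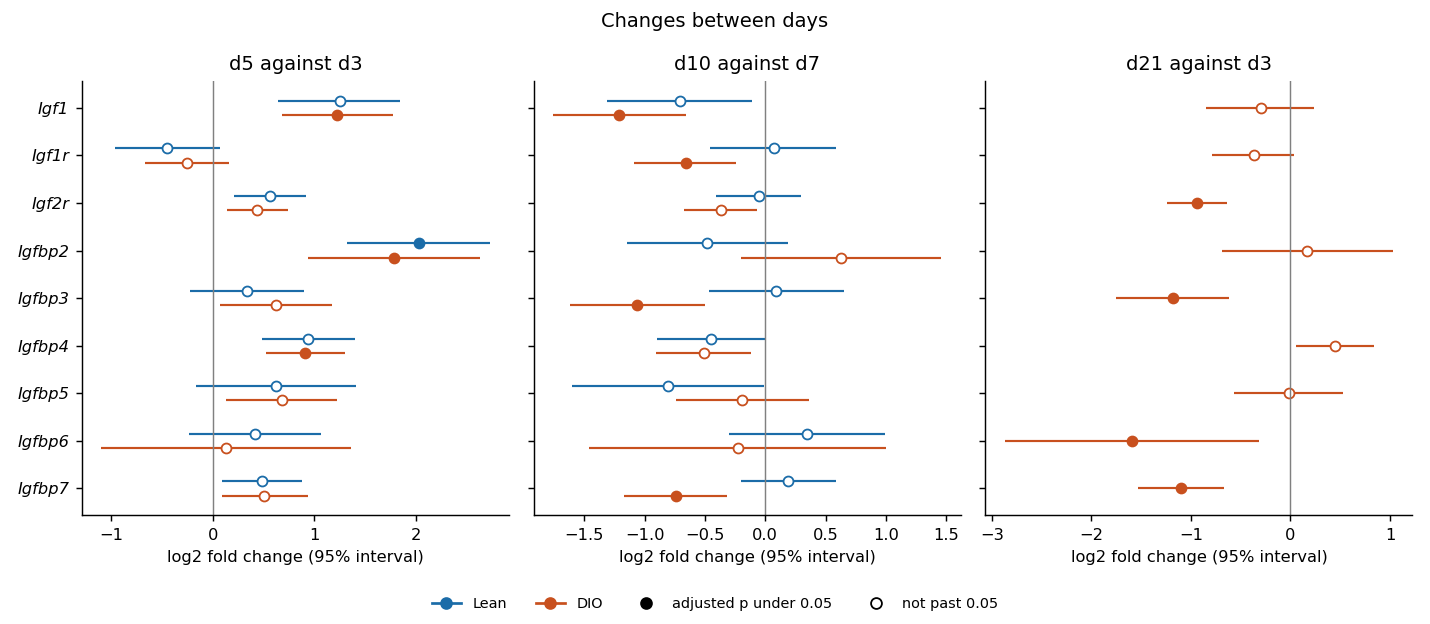
Log2 fold changes of the 9 genes with 95% intervals for d5 against d3, d10 against d7 and, in DIO mice, d21 against d3, where filled points have an edgeR adjusted p under 0.05. From d7 to d10 in DIO mice, Igf1, Igf1r, Igfbp3 and Igfbp7 fell, and from d3 to d21 Igf2r, Igfbp3, Igfbp6 and Igfbp7 fell.

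Igfbp3 and Igfbp7 fell from d7 to d10 in DIO mice and were lower on d21 than on d3. IGFBP3 is the main carrier of IGFs in serum, and IGFBP7 is a matrix-associated protein of vessels and stroma. In Lean mice Igfbp3 was at 75.0, 72.2 and 106 CPM on d3, 101, 79.2 and 134 on d5, 97.0, 85.7 and 145 on d7 and 121, 86.9 and 137 on d10, and the days overlapped throughout. In the DIO mice Igfbp3 was at 73.3, 73.8 and 115 CPM on d3, at 149, 131 and 123 on d5, at 144, 184 and 117 on d7 and at 78.0, 71.0 and 65.0 on d10. It was at 52.5, 55.0 and 44.8 on d14 and at 34.4, 58.8 and 22.3 on d21. Every DIO mouse of d5 and d7 was above every DIO mouse of d10, d14 and d21. From d7 to d10 Igfbp3 fell by 1.06 on the log2 scale (SE 0.27, edgeR adjusted p = 0.0129), which was lost without the second mouse of d7, at 0.0635, or the third of d10. From d3 to d21 it fell by 1.18 (SE 0.27, edgeR adjusted p = 0.00169), which was kept in all 18 fits.

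Igfbp7 was at 381, 288 and 383 CPM on d3 in Lean mice, at 433, 460 and 554 on d5, at 463, 393 and 426 on d7 and at 581, 417 and 455 on d10. Levels in DIO mice were at 410, 299 and 355 CPM on d3, at 536, 491 and 490 on d5, at 558, 577 and 497 on d7 and at 312, 383 and 279 on d10. It was at 220, 210 and 259 on d14 and at 118, 225 and 154 on d21. The step from d7 to d10 in DIO mice was without overlap, while in Lean mice the same days overlapped. In DIO mice Igfbp7 fell by 0.74 on the log2 scale from d7 to d10 (SE 0.20, edgeR adjusted p = 0.0199) and by 1.10 from d3 to d21 (SE 0.20, edgeR adjusted p = 0.000333). The first call was lost without the first or second mouse of d7 or the first or the third of d10, at up to 0.0899, and the second was kept in all 18 fits. In Lean mice edgeR gave no call for Igfbp3 or Igfbp7 in any pair of days. Igfbp7 was nonetheless higher in every Lean mouse of d10 than of d3, with a ratio of 1.41 (1.08 to 1.86, edgeR adjusted p = 0.0558), and DESeq2 called this pair at 0.0327. The exons of Igfbp7, on chromosome 5 from 77349240 to 77408041 on the minus strand, share 85 bases, 7.03% of their length, with Polr2b on the opposite strand. Igfbp3 lies on chromosome 11 from 7206086 to 7213923, on the minus strand.

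Igfbp6, whose protein prefers IGF2 over IGF1, rose from d3 to d10 in Lean mice and spread widely between the DIO mice of d14 and d21. It was at 30.3, 23.7 and 46.7 CPM on d3 in Lean mice, at 40.9, 50.2 and 41.2 on d5, at 64.2, 80.8 and 37.9 on d7 and at 98.1, 71.3 and 60.6 on d10. The mice of d10 were above those of d3 without overlap, a 2.34-fold rise (1.49 to 3.68, edgeR adjusted p = 0.0108) that was kept in all 12 fits with 1 library left out, with a log2 value of 1.01 without the first mouse of d10. Over any of the Lean days the adjusted p was 0.0440, and this call was lost in 9 of those 12 fits, the exceptions being the third mice of d3, d7 and d10, with adjusted p of up to 0.115. In DIO mice Igfbp6 was at 65.5, 38.5 and 50.3 CPM on d3, at 51.1, 54.7 and 63.0 on d5, at 70.6, 59.6 and 80.0 on d7 and at 56.4, 68.7 and 54.1 on d10. It was at 27.2, 52.4 and 20.2 on d14 and at 2.36, 41.7 and 7.20 on d21. The second mouse of d14 and that of d21 were each above the other mice of their day. From d3 to d21 Igfbp6 fell by 1.59 on the log2 scale (SE 0.61, edgeR adjusted p = 0.0403), a call that was lost without the first or the third mouse of d3 or the first or the third of d21, at up to 0.137. Without the second mouse of d21 the difference was -3.43, with an adjusted p of 1.1e-05.

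Skeletal muscle genes moved with Igfbp6 in these mice. The sum over all 10 genes of that list, none of which was at 0, was 11737, 29156 and 5637 CPM in the 3 DIO mice of d14 and 442, 14171 and 2718 CPM in those of d21, so that the second mouse was highest in both. Over the 30 libraries this sum had a Pearson r of 0.66 with Igfbp6. The r was 0.58 for the chondrocyte, endothelial and fibroblast and stromal lists and 0.57 for the osteoblast list. It was -0.56 for the adipocyte list, -0.48 for the neutrophil list, -0.12 for the osteoclast list and 0.04 for the macrophage list. On d21 the second mouse was also highest in the chondrocyte, endothelial, stromal and osteoblast sums, but on d14 it was not. Values of the muscle sum in other groups follow. The muscle sum ran from 8494 to 14358 CPM on Lean d3, from 5149 to 20112 on d5, from 6634 to 19886 on d7 and from 1232 to 16978 on d10. In DIO mice it ran from 11554 to 20784 CPM on d3, from 6626 to 13084 on d5, from 7845 to 21026 on d7 and from 22043 to 29384 on d10. The first Lean mouse of d10, with the lowest of these Lean sums, had the highest Igfbp6 of all 30 libraries, 98.1 CPM. This rank depends on its TMM factor of 0.779, the lowest of the 30 libraries. The part of muscle tissue in the level of Igfbp6 was not tested. Igfbp6 lies on chromosome 15 from 102144362 to 102149511, on the plus strand.

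**Figure D4:**
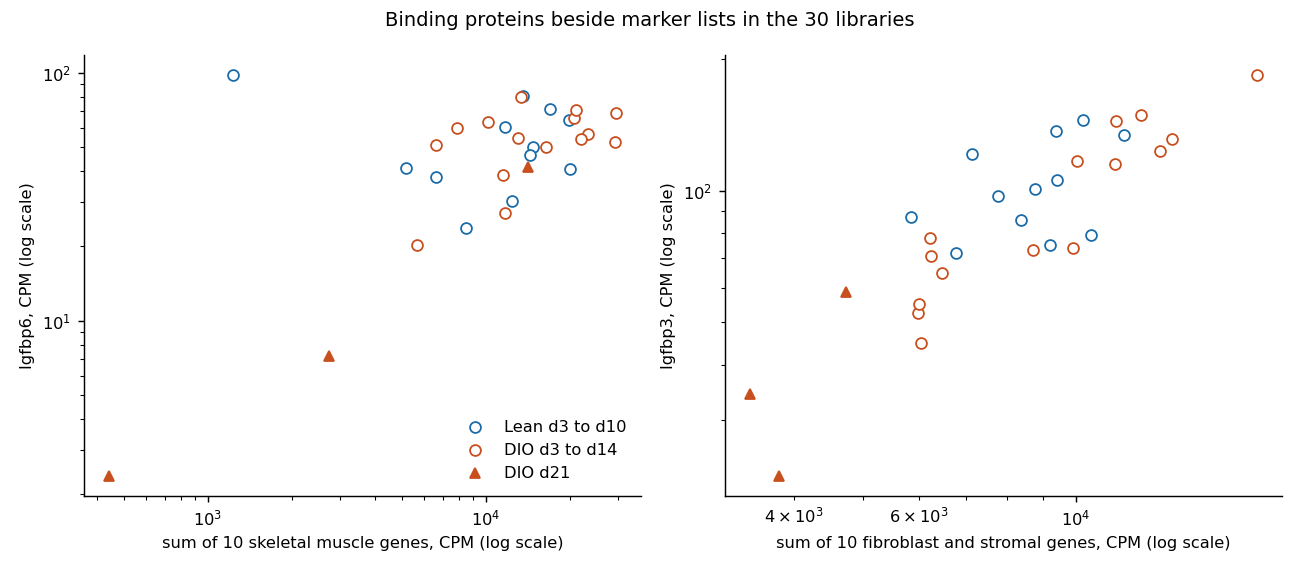
Igfbp6 against the sum of 10 skeletal muscle genes (left) and Igfbp3 against the sum of 10 fibroblast and stromal genes (right), in CPM on log axes, with 1 point per library (12 Lean, 18 DIO) and triangles for DIO d21. The DIO mice of d21 with 2.36 and 7.20 CPM of Igfbp6 have muscle sums of 442 and 2718 CPM, and a Lean mouse of d10 has 98.1 CPM of Igfbp6 at a sum of 1232 CPM.

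Igfbp5, whose protein binds to bone matrix, gave no call in any comparison of days or diets by edgeR. It was at 349, 226 and 257 CPM on d3 in Lean mice, at 474, 420 and 360 on d5, at 343, 407 and 425 on d7 and at 95.6, 197 and 374 on d10. The DIO mice were at 325, 360 and 320 CPM on d3, at 449, 641 and 519 on d5, at 488, 419 and 401 on d7 and at 517, 305 and 326 on d10. It was at 417, 581 and 404 on d14 and at 200, 466 and 325 on d21. The mice spread widely on Lean d10, where the first mouse, set apart by its cartilage and muscle markers, was the lowest of all 30 libraries. Over any of the DIO days its adjusted p by edgeR was 0.128, and without the second mouse of d21 it was 0.0207. Without the third Lean mouse of d10, the highest of its day, edgeR called Igfbp5 between any of the Lean days (0.0263, against 0.202 with all mice) and for diet over the time course (0.0150, against 0.202). Igfbp5 and Igfbp2 lie on chromosome 1 and converge, with Igfbp2 from 72824503 to 72852474 on the plus strand, Igfbp5 from 72857932 to 72874884 on the minus strand and 5457 bases between their ends. Their levels over the 30 libraries had a Pearson r of 0.11, given as a description on log2 CPM.

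Between the diets, no member passed the test. On d3, edgeR gave 0 of the 9 members at an adjusted p under 0.05 (0% of all genes), with 0 at an unadjusted p under 0.05 and 0 by DESeq2. On d5 it gave 0 (1.08% of all genes), with 1 at an unadjusted p under 0.05 and 0 by DESeq2. On d7 it gave 0 (2.32%), with 2 unadjusted and 1, Igfbp2, by DESeq2. On d10 it gave 0 (0% of all genes), with 2 unadjusted and 0 by DESeq2. Tested as a change of the diet difference between the days, 0 members passed by edgeR (1.65% of all genes), with 2 unadjusted and 1 by DESeq2. Over the time course modelled with day as a polynomial, 0 passed by edgeR (8.13%), with 4 unadjusted and 2 by DESeq2. A p that misses the threshold does not show that the diets were alike, and the intervals below give what remains possible.

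Igf1 had a higher mean in DIO than in Lean mice on each of the 4 days. The ratio of DIO to Lean was 1.27 on d3 (95% interval 0.800 to 2.03), 1.28 on d5 (0.991 to 1.66), 1.62 on d7 (1.05 to 2.51) and 1.16 on d10 (0.816 to 1.66), with edgeR adjusted p of 0.604, 0.285, 0.256 and 0.815. The mice of both diets overlapped on every day. Without the second DIO mouse of d7 the log2 difference of that day was 0.31 in place of 0.70, without the first DIO mouse of d3 that of d3 was 0.03 in place of 0.35, and without the first Lean mouse of d10 that of d10 was -0.02 in place of 0.22. In that second DIO mouse of d7, Igf1, Igfbp3 and Igfbp4 were the highest of all 30 libraries. The rank of Igfbp4 depends on the TMM factors, 0.914 in this mouse and 1.04 in the second Lean mouse of d5. The fibroblast and stromal sum of the same DIO mouse was 18062 CPM. Over all 10 genes of that list, none at 0, the range was 7774 to 10231 CPM on Lean d7 and 10040 to 18062 on DIO d7. The part of this in the level of Igf1 was not tested.

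Igfbp2 was lower in DIO mice on d7, at 4.97, 1.69 and 4.70 CPM against 9.72, 12.2 and 6.17 in Lean mice, without overlap. The ratio of DIO to Lean was 0.412 (0.217 to 0.781, edgeR adjusted p = 0.154). DESeq2 gave an adjusted p of 0.0358 and a fit of all 30 libraries a log2 difference of -1.30 that passed, and without the second DIO mouse the difference was -0.93. On d10, Igfbp3, Igfbp7 and Igf1r were each lower in all 3 DIO mice than in any Lean mouse, on a day when edgeR called 0% of all genes. For Igf1r the diets nearly touched, at 7.52 CPM in the highest DIO and 7.58 in the lowest Lean mouse (edgeR adjusted p = 0.687). The share of all genes without overlap of the mice was not counted for any comparison. The ratio of DIO to Lean was 0.626 for Igfbp3 (0.463 to 0.848, edgeR adjusted p = 0.686) and 0.677 for Igfbp7 (0.489 to 0.938, 0.686). For both genes the ratio was above 1 on d7, at 1.37 for Igfbp3 (0.942 to 1.99) and 1.28 for Igfbp7 (0.981 to 1.68). The change of the diet difference over the days had an edgeR adjusted p of 0.169 for Igfbp3 and 0.117 for Igfbp7, and by DESeq2 that of Igfbp7 was 0.0222. Over the time course the edgeR values were 0.0823 for Igfbp3 and 0.107 for Igfbp7, and the DESeq2 values 0.0282 and 0.0388. Without the third Lean mouse of d5 both passed by edgeR, at 0.0420 and 0.0452, as did Igfbp3 without the second Lean mouse of d10, at 0.0456.

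For the receptors, the ratio of DIO to Lean ran from 0.657 on d10 (0.400 to 1.08) to 1.08 on d7 (0.754 to 1.54) for Igf1r. For Igf2r it ran from 0.899 on d10 (0.692 to 1.17) to 1.24 on d3 (0.994 to 1.54). Igfbp4 had ratios of 1.02, 1.01, 1.16 and 1.12 on the 4 days, with the interval of d5 from 0.797 to 1.28. Igfbp5 had its highest ratio on d10, 1.74 (0.873 to 3.47), where the first Lean mouse was low. Igfbp6 was higher in every DIO mouse of d5 than in any Lean mouse of that day, with a ratio of 1.28 (1.04 to 1.57, edgeR adjusted p = 0.202).

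**Figure D5:**
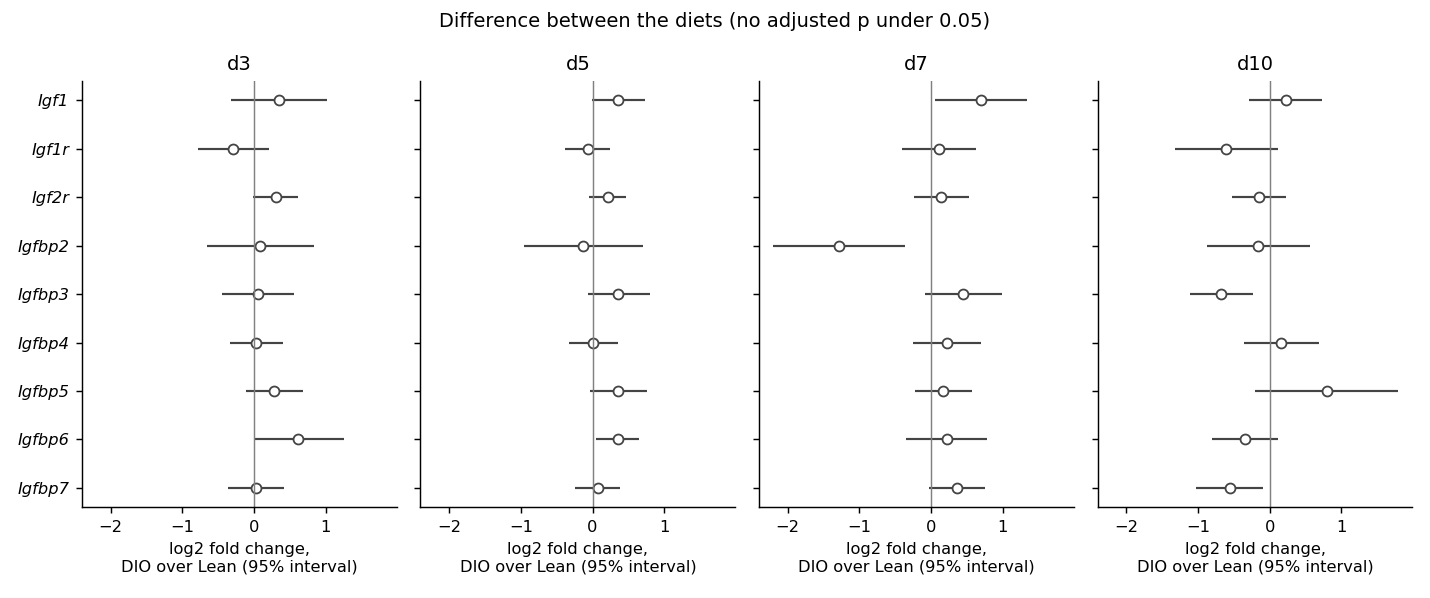
Log2 ratio of DIO to Lean for each gene with its 95% interval on d3, d5, d7 and d10 (3 mice per diet and day). No point passes an edgeR adjusted p of 0.05, and Igfbp2 on d7, at -1.28, lies farthest from 0.

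The other genes of the pathway were taken from a list of 42, which covers IGF2 and insulin genes, binding-protein proteases, growth hormone signalling and the kinases downstream of the receptor. In Lean mice 36 of them passed the filter and 10 differed between any of the days. In DIO mice 37 passed the filter and 26 differed, beside the 19% and 59.1% of all tested genes given above. From d3 to d10 of Lean mice 8 rose and 7 fell, where 29.3% of all tested genes were called, and from d3 to d21 of DIO mice 12 rose and 9 fell, where 45.3% were. Igf2, the second IGF ligand and best known as a growth factor of fetal tissue, was at 49.5, 23.4 and 28.4 CPM on d3 and at 600, 377 and 214 CPM on d5 in Lean mice. It rose by 3.59 on the log2 scale between these days (SE 0.41, edgeR adjusted p = 0.00435) and fell by 1.65 from d7 to d10 (SE 0.38, edgeR adjusted p = 0.0453). In DIO mice it was at 37.1, 112 and 25.7 CPM on d3, at 128, 538 and 404 on d5 and at 9.15, 25.4 and 8.34 on d21. It rose by 2.61 from d3 to d5 in these mice (SE 0.59, edgeR adjusted p = 0.0275), the days over which Igf1 rose as well. Of the exon bases of Igf2, 62.8% lie also in the annotated readthrough gene Gm49394 on the same strand.

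Htra1, a secreted serine protease that can cut IGF-binding proteins, rose by 1.68 on the log2 scale from d3 to d10 in Lean mice (SE 0.28, edgeR adjusted p = 0.00156), from a mean of 111 to 348 CPM. Its mice were at 112, 92.3 and 130 CPM on d3 and at 511, 270 and 262 on d10. The first of d10 was the mouse set apart by its cartilage and muscle markers. Irs2, an adaptor of the insulin and IGF1 receptors, fell by 2.02 from d3 to d10 in Lean mice (SE 0.34, edgeR adjusted p = 0.00163), from a mean of 5.08 to 1.21 CPM. In DIO mice Grb10, an adaptor that restrains these receptors, rose by 1.18 from d3 to d7 (SE 0.19, edgeR adjusted p = 0.000957) and fell by 1.35 from d7 to d10 (SE 0.20, edgeR adjusted p = 0.000198). Its level over the days was near that of Igf2r in shape, and it was among the 3 genes most like Igf2r over the 30 libraries, with a Pearson r of 0.94. Pik3r1, the regulatory subunit of PI3 kinase, rose by 1.43 from d3 to d21 in DIO mice (SE 0.15, edgeR adjusted p = 2.18e-06). Foxo3, a transcription factor held out of the nucleus by IGF signalling, rose by 1.58 (SE 0.16, edgeR adjusted p = 1.26e-06). Between the diets, 0 of the 36 tested pathway genes passed by edgeR on any single day, with 4, 7, 9 and 4 at an unadjusted p under 0.05 on d3, d5, d7 and d10. Over the time course 3 of 36 passed, a share near the 8.13% of all genes: Pik3cb, a catalytic subunit of PI3 kinase, at 0.0127, Grb10 at 0.0227 and Pappa2, a protease of IGFBP5 named after its values were seen, at 0.0265 (edgeR adjusted p). On d7 Pik3cb was at 18.6, 11.9 and 19 CPM in DIO mice and at 30.4, 33.2 and 33.8 in Lean mice, and Grb10 at 536, 704 and 546 CPM against 313, 279 and 474.

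Over the 30 libraries Igf2r, Igfbp3, Igfbp6 and Igfbp7 varied together, while Igf1r and the other binding proteins followed them less. These values are Pearson correlations of log2 CPM, given as a description, and the libraries share the days of healing and the mixture of tissues. The r was 0.90 between Igfbp3 and Igfbp7, 0.89 between Igf2r and Igfbp7, 0.85 between Igf2r and Igfbp3 and 0.79 between Igfbp6 and Igfbp7. Igf1 was most like Igfbp4 among the members, at 0.78. Igfbp4 had only 0.23 to 0.29 with Igfbp3, Igfbp6 and Igfbp7 and 0.60 with Igfbp5, and Igfbp5 had 0.14 with Igfbp3, 0.15 with Igfbp6 and 0.07 with Igfbp7. Igfbp2 had values from 0.11, with Igfbp5, to 0.50, with Igf2r, beside -0.23 with Igf1r. Igf1r had values from -0.38, with Igfbp4, to 0.23, with Igfbp7. Among 14798 other genes with a mean of at least 1 CPM, those most like Igf1 were Palmd (0.87), Itm2a and C1s1 (both 0.84). For Igf1r they were Cmip and Myh9 (both 0.88) and Anxa11 (0.87), and for Igf2r Ccdc8 (0.95), Lix1l and Grb10 (both 0.94).

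For Igfbp3 the most like genes were Spon1 (0.91), Col6a3 and Sulf1 (both 0.90), and for Igfbp7 Col6a1, Thbs3 and 9530068E07Rik (all 0.95). Col6a1 and Col6a3 encode chains of collagen VI and Thbs3 a thrombospondin. For Igfbp2 they were Cpxm1, Mdk (both 0.75) and 6330403K07Rik (0.74), and for Igfbp4 6330403K07Rik (0.82), Fbln5 (0.79) and Tmem9 (0.76). For Igfbp5 they were Gm3830 (0.80), Asph and Cacna2d1 (both 0.79). For Igfbp6 they included Shisa4 and Cdh13 (both 0.92).

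The sums of the marker lists ran beside some members and not others. The sum over 10 fibroblast and stromal genes had an r of 0.87 with Igfbp3, 0.86 with Igf2r, 0.83 with Igfbp7, 0.65 with Igf1 and 0.32 with Igfbp4. In DIO mice this sum ran from 10040 to 18062 CPM on d7, from 6224 to 6481 on d10, from 5982 to 6047 on d14 and from 3469 to 4739 on d21, while Pdgfra, its defining marker, stayed between 74.8 and 156 CPM on these days. The sum over 10 chondrocyte genes, none at 0, had an r of 0.74 with Igfbp7, 0.72 with Igfbp3, 0.69 with Igf2r and 0.59 with Igf1, beside -0.14 with Igf1r. It was 18978 to 41490 CPM on d7 and 2914 to 7330 CPM on d10 in DIO mice, the step over which Igf1, Igf1r, Igfbp3 and Igfbp7 were called lower, and in Lean mice it was 5015 to 17139 CPM on d7 and 12998 to 69377 CPM on d10. The sum over 10 adipocyte genes ran the other way, with an r of -0.86 with Igfbp7, -0.83 with Igfbp3 and -0.82 with Igf2r. It was 212 to 318 CPM on d7 and 1270 to 1347 CPM on d21 in DIO mice. The 10 macrophage genes had an r of -0.23 with Igf1, and their sum of 982 to 1028 CPM on DIO d7 was the lowest of the 10 groups, where Igf1 had its highest mean. Adgre1, the defining marker of this list, was not lowest there. It ran from 29.7 to 33.9 CPM on DIO d7, from 17.6 to 28.7 on Lean d10 and from 25.0 to 34.0 on DIO d10. The 8 osteoclast genes had an r of -0.76 with Igf1r. Whether these cell types carry the changes of the members was not tested.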

How the data were processed

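RNA was sequenced from 30 fracture calli by stranded poly(A) RNA-seq. The authors demultiplexed the reads with bcl2fastq, trimmed them with BBDuk, aligned them to GRCm38 with HISAT2 2.1.0 and counted reads per gene by HTSeq. The deposited values are these counts as such, not normalized. The strand option and annotation of the counting are not given in the sources used here. Identifiers were matched to GENCODE M21, which held 42548 of the 43629.

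From these counts, CPM were computed with TMM factors over all 30 libraries, and levels per length with the union of exons. Genes kept by filterByExpr entered the quasi-likelihood F-test (two-sided) of edgeR 4.0.16 in R 4.3.3. Benjamini-Hochberg adjustment ran over all tested genes, and 0.05 was the threshold. Lean days were fitted over 12 libraries, DIO days over 18, diets within a day over 6 and the change of the diet difference and the time course over 24, the last with the day as a polynomial of degree 2. Intervals are 95% confidence intervals of the ratio between groups. They are estimated from the spread between mice and do not give the range of single mice. Log2 CPM carried a prior count of 2. Depth put at least 22 reads behind every value of a member. The precision rests on the spread between 3 mice and, for Igfbp2 with its 22 to 204 reads per library, also on counting noise. Within groups, the 30 pairs of libraries all differed by more than counting noise, with a chi-square per degree of freedom of 13.6 to 160, so none was counted as a duplicate.

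Alternatives were DESeq2 1.42.0, RLE and upper-quartile factors, a filter of 1 count, a replicate block, all 30 libraries in 1 fit, day as a factor, raw totals and each library left out in turn. With BLAST 2.17.0, 1 member, Igfbp4, matched another gene over 100 bases or more at 95% identity or above, 144 bases in Ctdspl2. On simulated data, edgeR was tested for any difference between days, for d10 against d7 within each diet and for the diets on d5. It was also tested for the change of the diet difference and for the time course. The other pairs, DESeq2 and the other alternatives were not tested on simulated data. The members and gene lists were chosen with earlier results of these data known. Of the pathway list, up to 3 genes of lowest adjusted p are named for each test over days, and up to 2 for each comparison of diets, and 3 genes most like each member, of which 1 is not reported here. Promoter windows are from RefSeq on GRCm38.p6 and were matched for all 9 members. Flow cytometry and histology were not used here.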

Additional observations from a re-analysis of the deposited data

How the results depend on the processing

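The main changes under the alternatives are given here or beside the values in the report, with causes not tested. With 1 library left out, members called between any Lean days ranged from 1 to 5 (main value 4, with 1 without the first or the second mouse of d3 and 2 without the second of d5), and pathway genes from 5 to 10 (main value 10, with 5 without the first mouse of d3 or of d10 and 6 without the second of d3). Members called for diet over the time course ranged from 0 to 2 in such fits, where Igfbp6 was gained without the third Lean mouse of d3 (0.0477). Igf1r was gained between Lean days without the third mouse of d3 (0.0360) or the first of d10 (0.0286), and Igfbp6 between DIO days without the second mouse of d14 (0.0438) or of d21 (3.84e-05). The log2 difference of Igf1 between DIO and Lean mice on d10, 0.22 over all mice, ranged from -0.02 (without the first Lean mouse) to 0.37 (without the third) in such fits. DESeq2 called 1 member for the change of the diet difference (Igfbp7), 2 over the time course (Igfbp3 and Igfbp7) and 1 on d7 between the diets (Igfbp2), where edgeR called 0, and the fit of all 30 libraries also called 1 on d7. It called 3 members in Lean d5 against d3 (Igf1, Igfbp2 and Igfbp4) and 4 in Lean d7 against d3, where edgeR called 1 in each, and 3 in DIO d7 against d3 and 3 in DIO d10 against d3, where edgeR called 2 in each. It also called 4 in Lean d10 against d3 (edgeR 3, Igfbp7 added), and 5 in DIO d10 against d7 and 5 in DIO d21 against d3 (edgeR 4 in each, Igfbp4 added).

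With the replicate block, 4 members were called between Lean days, with Igfbp3 (adjusted p = 0.0496) in place of Igfbp6 (0.0648), and 8 between DIO days, and 0 in every comparison of diets. Across genes, deviations from the group means correlated at -0.239 to 0.523 between Lean mice of the same number (mean 0.174, against -0.0860 for other numbers) and at -0.279 to 0.228 between DIO mice (mean -0.0216, against 0.0106). Not every pair was positive, and the main fits did not pair the mice by number. This does not exclude structure shared by Lean mice of the same number, whose mean was the higher. Over all genes, the block gave 3865 calls in place of 3132 between any Lean days. Under the block, the calls of Igfbp2 in DIO d5 against d3 and of Igf1r in DIO d10 against d7 were lost, and the latter also with the filter of 1 count. In the fit of all 30 libraries, Igfbp6 was not called between Lean days (0.278) or in Lean d10 against d3, and was called between DIO days (0.0318), as it was with the filter of 1 count (0.00862) and the block (0.0473). That fit and DESeq2 also called Igf1r between Lean days (0.0102 and 0.0181), and that fit Igf2r (0.0401). Of 90 levels, 3 moved by more than 1 SD with raw totals.

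Over all genes, the counts behind the percentages depended on the tool and on single libraries. With DESeq2 in place of edgeR they were 4848 in place of 3132 between any Lean days, 583 in place of 74 in Lean d5 against d3, 837 in place of 275 in Lean d7 against d3, 38 in place of 0 in Lean d7 against d5 and 1802 in place of 450 in Lean d10 against d7. In DIO mice they were 575 in place of 285 in d5 against d3, 343 in place of 3 in d7 against d5 and 552 in place of 129 in d14 against d10. Between the diets they were 726 in place of 0 on d3, 1149 in place of 170 on d5, 944 in place of 366 on d7, 41 in place of 0 on d10, 1151 in place of 282 for the change of the difference and 2497 in place of 1386 over the time course. With the replicate block, Lean d5 against d3, d7 against d3 and d10 against d7 gave 199, 451 and 1479, DIO d14 against d10 gave 45, and the diets gave 325 on d3 and 0 on d5. The fit of all 30 libraries gave 202, 523 and 1529 for the same Lean pairs, 2 in Lean d7 against d5, 1 in DIO d7 against d5, 2 in DIO d14 against d10 and 63, 675 and 3 between the diets on d5, d7 and d10. With the filter of 1 count, Lean d5 against d3 gave 169, DIO d5 against d3, d7 against d5 and d14 against d10 gave 478, 271 and 329, the change of the diet difference 503, and the diets 515, 565, 724 and 29 on d3, d5, d7 and d10. With upper-quartile factors the diets gave 1 on d3. With 1 library left out, the Lean counts ranged from 1678 to 3130 between any days, from 9 to 251 in d5 against d3, from 57 to 561 in d7 against d3, from 2863 to 5016 in d10 against d3 and from 24 to 1141 in d10 against d7. DIO counts ranged from 90 to 354 in d5 against d3, from 592 to 1621 in d7 against d3, from 2184 to 3975 in d10 against d3, from 0 to 236 in d7 against d5, from 0 to 459 in d14 against d10 and from 1285 to 4070 in d21 against d14. Between the diets they ranged from 0 to 237, 0 to 935, 29 to 936 and 0 to 10 on d3, d5, d7 and d10, from 0 to 602 for the change of the difference and from 619 to 1983 over the time course.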
